A study of Mus musculus with 24 samples.

Results

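The 12 arrays described here compare the hypertrophic zone (HZ) with the proliferative zone (PZ) of the tibial growth cartilage of Ezh1/2 mice, which lack Ezh1 and in whose chondrocytes Ezh2 was deleted. The arrays were taken by their titles, 6 from the HZ and 6 from the PZ, out of 24 in the series. The other 12 arrays, 6 from the HZ and 6 from the PZ of wild-type mice, served as the reference for the zone difference. Every array carried amplified RNA from one zone of the proximal tibia of one mouse aged 3 days, cut out by laser capture microdissection from serial sections. In the crosses that the study's methods give, both genotypes carried the Col2-cre transgene and were Ezh1-/-, on a mixed background and of both sexes. The Ezh1/2 mice were Ezh2 fl/fl and the mice called wild type were Ezh2+/+, so the wild-type mice also lacked Ezh1. The labels themselves name only an Ezh2 knockout and a wild type. Cre was driven by the type II collagen promoter, which is active in chondrocytes, so cells of vessels, marrow and muscle cut out with the cartilage were not meant to lose Ezh2.

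EZH1 and EZH2 are the alternative catalytic subunits of Polycomb repressive complex 2, which methylates lysine 27 of histone H3 and keeps developmental genes silent. In the growth plate, column-forming chondrocytes of the PZ divide and lay down a matrix of type II collagen and aggrecan. They then leave the cell cycle, pass a prehypertrophic stage that secretes Indian hedgehog, enlarge, make type X collagen and mineralize their matrix, after which vessels, osteoclasts and bone-forming cells invade from the metaphysis. The zone difference therefore measures the maturation of the chondrocyte together with whatever invading tissue was cut out with the HZ.

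Values are log2 expression values, so 1 unit is a factor of 2, and each difference is the HZ mean minus the PZ mean of 6 arrays, with its standard error (SE). Adjusted p-values come from a limma fit to all 24 arrays with Benjamini-Hochberg adjustment over 41345 probe sets, and genes were called at an adjusted p under 0.05. The study's methods give 6 mice of each genotype for all 24 arrays, so both zones of a genotype came from the same mice. Which HZ and PZ arrays share a mouse is not given by the labels. The arrays were therefore not paired, and the fit treats them as separate. Precision is limited by the 6 arrays in a group. Levels are compared within a gene only, since probe sets differ in brightness. In bulk tissue of this kind, fewer cells of a type and less RNA per cell cannot be told apart.

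The deleted gene was looked at first. Ezh2 had log2 levels (lowest, median and highest) of 6.20, 6.48 and 6.61 in the Ezh1/2 HZ and 5.85, 6.56 and 6.67 in the Ezh1/2 PZ. Its HZ minus PZ difference was -0.03 (SE 0.13, adjusted p = 0.899) in Ezh1/2 mice, and the arrays overlapped. In wild-type mice Ezh2 fell in the HZ by 0.82 (adjusted p = 3.42e-05), and the difference between these zone differences was 0.80 (SE 0.18, unadjusted p = 0.000229, adjusted p = 0.22). Whether this probe set lies within the floxed exons was not looked up, and Ezh2 levels give no check of the HZ labels. Ezh1, absent by design from both genotypes, averaged 4.59 ± 0.19 in the HZ and 4.56 ± 0.09 in the PZ (SD, n = 6 each), a difference of 0.04 (SE 0.09, adjusted p = 0.8).

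HZ arrays varied more than PZ arrays. Within-group correlations over all probe sets were 0.896 to 0.939 in the Ezh1/2 HZ and 0.956 to 0.973 in the Ezh1/2 PZ, close to those of the wild-type zones, and the median SD of a probe set was 0.271 and 0.197. Arrays of the HZ also had a narrower spread of values, with interquartile ranges of 1.43 to 1.78 in the Ezh1/2 HZ and 1.82 to 1.96 in the Ezh1/2 PZ, lowest on HZ array 1 and, in wild-type mice, on HZ arrays 1 (1.35) and 4 (1.42). Ezh1/2 HZ array 4 stood apart from the other HZ arrays. It held 9.70 of Ucma, a marker of the resting and upper proliferative cartilage, against 4.68, 4.50, 5.55, 4.93 and 4.99 on the other HZ arrays and 8.92 to 9.85 in the PZ. The same array had the lowest HZ levels of Mmp13, Ptgs2 and Steap4, and arrays 4 and 6 had the most RNA of muscle and perichondrium. Without arrays 4 and 6 of the Ezh1/2 HZ, a choice made after seeing the data, 6074 probe sets were called higher and 6149 lower in the HZ (5905 and 6467 with them).

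The zone markers parted the 2 zones of Ezh1/2 mice. Col10a1, the type X collagen of hypertrophic chondrocytes, had levels of 12.07, 12.39 and 12.74 in the Ezh1/2 HZ and 7.87, 8.64 and 9.84 in the Ezh1/2 PZ, a difference of 3.65 (SE 0.28, adjusted p = 1.68e-09) or 12.5-fold. Mmp13, the collagenase of the last hypertrophic rows, had levels of 10.06, 11.21 and 11.63 in the Ezh1/2 HZ and 5.30, 6.28 and 8.37 in the Ezh1/2 PZ and differed by 4.60 (SE 0.70, adjusted p = 2.63e-05). For both genes every HZ array lay above every PZ array. Ibsp, a bone sialoprotein that nucleates mineral, was higher in the HZ by 3.14 (SE 0.75, adjusted p = 0.00273) and Alpl, the phosphatase that frees phosphate for mineral, by 2.07 (SE 0.22, adjusted p = 1.49e-07). The gene of Indian hedgehog itself, Ihh, was higher by 1.46 (SE 0.17, adjusted p = 7.99e-07), and Pth1r, the receptor of parathyroid hormone-related protein, by 0.92 (SE 0.16, adjusted p = 0.000124). Each of these 6 markers gave an exact two-sided permutation p of 0.0022, the smallest that 6 against 6 arrays allow.

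The cycling markers ran the other way. Top2a, the topoisomerase of dividing cells, had levels of 4.75, 5.66 and 6.72 in the Ezh1/2 HZ and 7.37, 7.60 and 7.88 in the Ezh1/2 PZ, a difference of -1.87 (SE 0.34, adjusted p = 0.000178) with no overlap. Its HZ arrays fell into a low and a high set, with 4.82, 4.80 and 4.75 on arrays 1, 3 and 5 and 6.72, 6.69 and 6.51 on arrays 2, 4 and 6. Mki67, the Ki-67 antigen, differed by -1.39 (SE 0.34, adjusted p = 0.00308), and HZ array 4, at 7.50, reached into the PZ range (exact permutation p = 0.00649). Of the genes shared by all chondrocytes, Col2a1 (type II collagen) differed by -0.29 (SE 0.13, adjusted p = 0.102) and Acan (aggrecan) by -0.06 (SE 0.09, adjusted p = 0.667), with overlapping arrays and no call, while Sox9, the chondrocyte master regulator, was lower in the HZ by 1.67 (SE 0.19, adjusted p = 5.19e-07). Col2a1 was at 10.95 or more on every Ezh1/2 HZ array and at 11.53 or more on every Ezh1/2 PZ array. These levels do not measure how much other tissue was cut out with the cartilage, whose markers are given below.

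**Figure D1:**
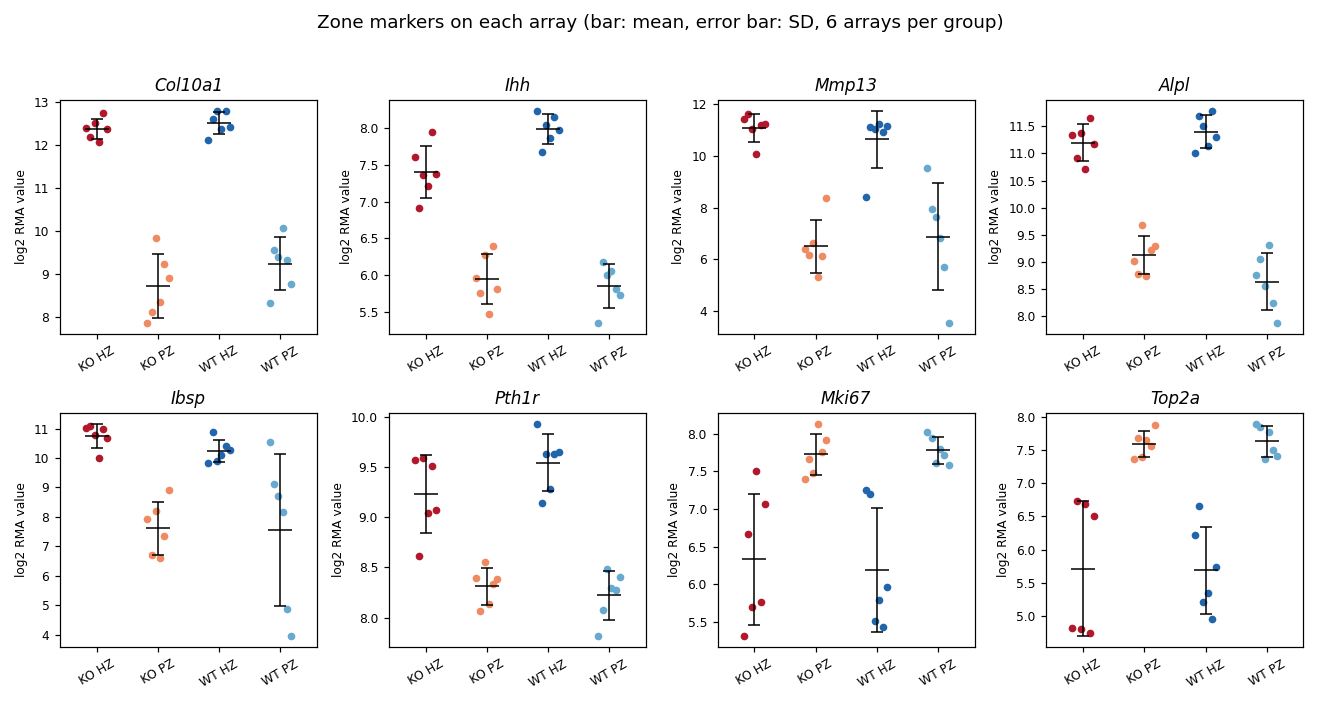
Log2 expression value (vertical axis) of 8 zone markers, with a panel for each gene, a point for each array of Ezh1/2 (KO) and wild-type (WT) mice, a bar at the mean and an error bar of 1 SD (6 arrays in each group). Col10a1, Ihh, Mmp13, Alpl, Ibsp and Pth1r lie higher on every KO HZ array than on any KO PZ array, and Top2a lies lower.

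The start regions of Mmp13 and Col10a1 are shown because these markers had the largest rises of the 6. The windows run from 250 bases before to 50 after the start of the RefSeq transcript (GRCm38.p6), 5′ to 3′ on the gene's strand. Capitals mark TGTGGT, the core that RUNX factors bind, TGACTCA, which AP-1 factors bind, and TATAAA, each searched on both strands.
Mmp13, chr9:7272264-7272563, plus strand: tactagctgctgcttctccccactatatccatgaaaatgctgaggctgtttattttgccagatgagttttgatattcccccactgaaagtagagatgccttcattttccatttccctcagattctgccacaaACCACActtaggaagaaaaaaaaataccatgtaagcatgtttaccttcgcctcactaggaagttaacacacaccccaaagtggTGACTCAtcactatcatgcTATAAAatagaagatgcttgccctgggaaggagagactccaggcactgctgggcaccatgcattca
Col10a1, chr10:34389731-34390030, plus strand: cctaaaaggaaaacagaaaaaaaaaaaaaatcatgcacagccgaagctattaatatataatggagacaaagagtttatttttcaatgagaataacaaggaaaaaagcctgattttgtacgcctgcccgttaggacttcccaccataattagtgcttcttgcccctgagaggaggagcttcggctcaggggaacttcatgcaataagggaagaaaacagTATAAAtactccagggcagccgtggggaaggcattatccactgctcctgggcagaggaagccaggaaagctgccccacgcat
The Mmp13 window held the RUNX core on the minus strand (ACCACA, first base at -118 from the start), TGACTCA at -35 and TATAAA at -16. The Col10a1 window held TATAAA at -32 and neither of the other motifs. Over 32851 such windows of 27025 symbols, 16.8% held TGTGGT, 5.2% TGACTCA and 13.6% TATAAA. These matches describe the letters of the windows and are not shown to be bound.

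In all, 5905 probe sets were called higher in the HZ of Ezh1/2 mice (14.3% of 41345) and 6467 lower (15.6%). With one probe set for each of 22180 genes, 3767 genes were called higher (17%) and 3702 lower (16.7%). Among these, 758 were higher (3.42%) and 942 lower (4.25%) by more than 1 log2 unit, and 158 (0.712%) and 99 (0.446%) by more than 2. The 6 HZ and 6 PZ arrays did not overlap for 3893 genes (17.6%). In wild-type mice 4270 genes were called higher (19.3%) and 4005 lower (18.1%). Centring each array on the median of the annotated probe sets turned the split towards lower calls in both genotypes, with 4431 probe sets higher and 7300 lower in Ezh1/2 mice and 4690 higher and 7415 lower in wild-type mice (7134, 17.3%, and 6573, 15.9%, as deposited).

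Beside Mmp13, the largest rises in Ezh1/2 mice included those of genes that are not classical zone markers. Plk2, a polo-like kinase induced by stress and growth factors, had levels of 8.96, 9.21 and 10.27 in the Ezh1/2 HZ and 3.91, 4.21 and 4.40 in the Ezh1/2 PZ, a difference of 5.20 (SE 0.26, adjusted p = 2.16e-12) or 36.9-fold. F13a1, the coagulation factor XIII A chain, a transglutaminase that crosslinks cartilage matrix, rose by 4.70 (SE 0.25, adjusted p = 6.36e-12) and Anxa3, a calcium-binding annexin, by 4.56 (SE 0.17, adjusted p = 1.18e-14). Sulf1, which trims sulfate groups from heparan sulfate, rose by 4.48 (SE 0.20, adjusted p = 4.53e-13), and Aldh1a3, which makes retinoic acid, by 4.40 (SE 0.30, adjusted p = 2.21e-10). For all 5 genes every HZ array lay above every PZ array, which was a condition for choosing them. H2-Q10, a class I histocompatibility gene, differed by 5.07, but a second probe set of the gene differed by -0.77 (adjusted p = 3.89e-05), and near-identical class I genes can share such probes, so its value is uncertain.

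Among the next genes, Ptgs2, the inducible cyclooxygenase, rose by 4.12 (SE 0.45, adjusted p = 3.06e-07) with a wide HZ range of 5.64 to 10.20, and Steap4, a metalloreductase, by 4.18 (SE 0.41, adjusted p = 5.63e-08). The lowest HZ value of both was on array 4. Cds1, which makes the lipid intermediate CDP-diacylglycerol, rose by 3.96 (SE 0.18, adjusted p = 3.88e-13), the laminin receptor subunit Itga7 by 3.92 (SE 0.22, adjusted p = 2.05e-11), and Npr3, the clearance receptor of natriuretic peptides, by 3.90 (SE 0.22, adjusted p = 1.73e-11). C-type natriuretic peptide is a known stimulus of growth plate cartilage. Bmp6, a bone morphogenetic protein made by hypertrophic cells, rose by 3.29 (SE 0.20, adjusted p = 5.85e-11) and Wnk4, a kinase that controls ion transport, by 3.26 (SE 0.19, adjusted p = 2.15e-11). The 15 largest rises also included genes known from cells that invade the cartilage, such as Mmp9, the gelatinase of osteoclasts (4.11), and Cdh5, the cadherin of endothelial junctions (3.72). Another was Adgrf5, an adhesion receptor of endothelium and other cells (3.87). How much of the other rises came from such cells was not tested.

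Genes that were highest in the PZ included small matrix proteins and growth signals. Prelp, a leucine-rich proteoglycan that anchors collagen, had levels of 5.54, 7.09 and 8.33 in the Ezh1/2 HZ and 10.88, 11.18 and 11.47 in the Ezh1/2 PZ, a difference of -4.12 (SE 0.41, adjusted p = 9.16e-08) or 17.4-fold lower in the HZ. C1qtnf3, a secreted protein of the complement C1q family also known from cartilage, fell by 3.80 and Unc5c, a netrin receptor, by 3.38. Scrg1, a secreted protein of mesenchymal cells, fell by 3.27, and Epyc, a leucine-rich proteoglycan of cartilage, by 3.05. Gli1, the transcription factor that reads out Hedgehog signalling, had levels of 4.18, 4.89 and 6.39 in the Ezh1/2 HZ and 7.56, 8.21 and 8.54 in the Ezh1/2 PZ and differed by -3.13 (SE 0.25, adjusted p = 2.42e-09). Plod2, which hydroxylates the lysines used in collagen crosslinks, fell by 3.10, and Gdf10, a growth factor related to BMP3, by 3.01. Thbs3, a thrombospondin, fell by 2.96 and Tgfbi, an extracellular protein induced by TGF-β, by 2.94. For each of these genes, which were chosen for having no overlap between the zones, the adjusted p was 4.23e-06 or less. Array 4 had the highest HZ level of Unc5c (7.16), C1qtnf3 (8.35) and Gli1 (6.39).

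Of 15 measured markers of prehypertrophic and hypertrophic chondrocytes, 9 rose (60%) and 5 fell (33.3%) in the HZ of Ezh1/2 mice. Among all genes 17% rose and 16.7% fell, the shares against which this and the later lists are to be read. The markers had a median difference of 0.92 against 0.06 over all genes. In wild-type mice 10 rose and 3 fell, with a median of 1.32. The 5 that fell in Ezh1/2 mice included Runx3, a transcription factor of maturing chondrocytes (-1.68 (SE 0.15, adjusted p = 1.31e-08)), and Panx3, a channel protein of prehypertrophic cells (-0.94 (adjusted p = 0.000256), wild type -0.19). For 7 of the 15 the zone difference differed between the genotypes at an unadjusted p under 0.05. It was nearer to 0 in Ezh1/2 mice for 5 (Ihh, Bmp6, Alpl, Mef2c and Cdkn1c) and farther below 0 for 2 (Panx3 and Smpd3), and no marker passed the adjusted p for that difference. Ihh was 1.46 higher in the Ezh1/2 HZ and 2.14 higher in that of wild-type mice (unadjusted p = 0.01, adjusted p = 0.677), and Bmp6 was 3.29 and 4.03 higher (unadjusted p = 0.0176, adjusted p = 0.758). Col10a1 and Mmp13 had larger values in Ezh1/2 mice, 3.65 against 3.27 and 4.60 against 3.78, with unadjusted p of 0.347 and 0.42 for the difference. For Mmp13, wild-type PZ array 1 was the highest PZ array (9.54) and HZ array 1 the lowest HZ array (8.39), which narrows the wild-type difference. Wild-type PZ array 6, at 3.53, widens it.

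Of 14 genes of mineralization, 6 rose (42.9%) and 2 fell (14.3%). Phex, an endopeptidase that guards phosphate balance, rose by 3.11 (SE 0.35, adjusted p = 5.11e-07), the kinase Fam20c, which phosphorylates secreted mineral-binding proteins, by 2.0 (SE 0.22, adjusted p = 2.43e-07), and Ank, which exports pyrophosphate or its precursor, by 1.44 (SE 0.20, adjusted p = 5.89e-06). Smpd3, a sphingomyelinase required for mineral, and Sparc, osteonectin, fell by 1.02 (adjusted p = 0.00201) and by 0.45 (adjusted p = 0.00348). In wild-type mice these 2 had differences of -0.25 and -0.08 and were not called, and the genotypes did not differ past the adjusted p (0.838 and 0.817).

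Genes of cell division fell almost as a block. Of 26 mitotic genes, 25 fell in the Ezh1/2 HZ and none rose, with a median difference of -1.23, and all 26 fell in wild-type mice, with a median of -1.29. Kif23, a kinesin of the midzone, had levels of 4.20, 4.82 and 5.33 in the Ezh1/2 HZ and 6.63, 6.72 and 6.83 in the Ezh1/2 PZ and differed by -1.96 (SE 0.15, adjusted p = 2.04e-09). Anln, the contractile ring protein anillin, fell by 1.89, the checkpoint kinase Ttk by 1.41 and the centromere protein Cenpf by 1.38, each with no overlap. The single mitotic gene not called was Bub1b, a spindle checkpoint kinase, with a difference of -0.07 (SE 0.22, adjusted p = 0.852) in Ezh1/2 mice and -0.74 in wild-type mice (unadjusted p = 0.0448, adjusted p = 0.88 for the difference). Of 28 genes of DNA replication, 12 fell and none rose, against 18 and none in wild-type mice, with medians of -0.41 and -0.56. Pola1 and Pold1, catalytic subunits of replicative polymerases, fell by 0.96 and 0.65, and E2f1, which switches on S-phase genes, by 0.62. Gins2, a subunit of the replicative helicase, had a difference of -0.15 with overlapping arrays in Ezh1/2 mice and -0.63 in wild-type mice (unadjusted p = 0.0243, adjusted p = 0.806).

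Among 16 cyclins, cyclin-dependent kinases and their inhibitors of G1, 4 rose (25%) and 7 fell (43.8%). Ccnd1, cyclin D1, fell by 1.53 (adjusted p = 3.38e-05) and its partner Cdk6 by 1.39 (adjusted p = 1.14e-07). The inhibitors did not move together. Cdkn1a, p21, rose by 1.59 (SE 0.25, adjusted p = 4.49e-05), and Cdkn2c, p18, fell by 1.2 (adjusted p = 2.47e-05). Cdkn1c, p57, a known inhibitor of hypertrophic chondrocytes, had levels of 6.98, 8.03 and 8.61 in the Ezh1/2 HZ and 7.13, 7.74 and 7.94 in the Ezh1/2 PZ. The difference was 0.31 (SE 0.24, adjusted p = 0.348), and the HZ arrays reached past the PZ range at both ends. In wild-type mice Cdkn1c rose by 1.16 (adjusted p = 0.000785), and the difference between the genotypes was -0.85 (SE 0.34, unadjusted p = 0.0209, adjusted p = 0.787).

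The Ink4 genes Cdkn2a and Cdkn2b are well-known targets of Polycomb. Cdkn2a had levels of 4.31, 4.76 and 5.13 in the Ezh1/2 HZ and 4.23, 4.49 and 4.51 in the Ezh1/2 PZ, a difference of 0.34 (SE 0.11, adjusted p = 0.023), and Cdkn2b had 4.97, 5.21 and 6.13 in the Ezh1/2 HZ and 4.76, 4.89 and 5.05 in the Ezh1/2 PZ, a difference of 0.44 (SE 0.15, adjusted p = 0.0333). Both rises were small beside those of the zone markers, and in both genes 1 or more HZ arrays lay within the PZ range. Both calls were lost under some alternatives, with adjusted p up to 0.0752 for Cdkn2a (without HZ arrays 4 and 6) and 0.0845 for Cdkn2b (without HZ array 5). Both were also lost when the 12 Ezh1/2 arrays were fitted alone. Wild-type differences were 0.16 and 0.21, and the genotypes did not differ past the test (unadjusted p = 0.274 and 0.288).

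**Figure D2:**
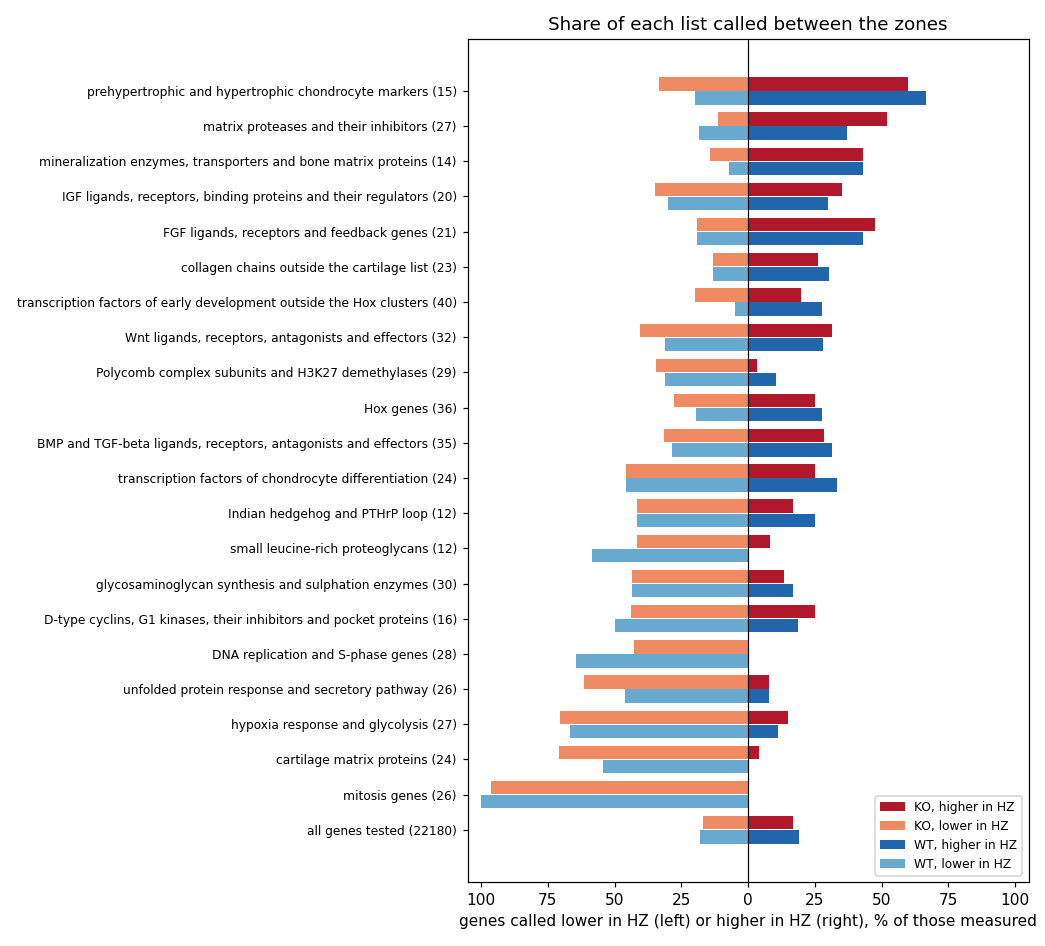
Share of the measured genes of each pathway list called lower (left) or higher (right) in the HZ, in percent (horizontal axis), with a bar for Ezh1/2 mice (KO) above that for wild-type mice (WT) and the number of measured genes in brackets; the bottom row gives all 22180 genes. Mitosis genes reach the farthest to the left in both genotypes, and hypertrophic markers the farthest to the right.

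Cartilage matrix genes were lower in the HZ. Of 24 measured, 17 fell and 1 rose in Ezh1/2 mice (median -0.89), against 13 and none in wild-type mice (median -0.61). Cnmd, chondromodulin, a cartilage protein that blocks vessel ingrowth, had levels of 8.11, 9.69 and 10.52 in the Ezh1/2 HZ and 11.86, 11.96 and 12.07 in the Ezh1/2 PZ and differed by -2.42 (SE 0.28, adjusted p = 6.6e-07). Matn3, a matrilin, fell by 2.0 in Ezh1/2 mice, against a difference of -1.18 in wild-type mice (unadjusted p = 0.0176, adjusted p = 0.758), and Col9a1, a type IX collagen chain, by 1.66 against -1.19. Comp, a pentameric matrix protein, fell by 0.86 against a wild-type difference of -0.21 (unadjusted p = 0.0132, adjusted p = 0.707). The one that rose was Prg4, lubricin, a protein of joint surfaces, by 1.36 (SE 0.34, adjusted p = 0.00396). Its level on HZ array 6 was 7.95, against 4.80 to 5.88 on the other HZ arrays, and array 6 also had the highest perichondrial score.

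Enzymes and transporters for the sulfated sugar chains of aggrecan followed the matrix. Of 30 measured, 13 fell and 4 rose. Chst11, a chondroitin 4-sulfotransferase, had levels of 6.93, 7.07 and 7.84 in the Ezh1/2 HZ and 9.27, 9.65 and 9.77 in the Ezh1/2 PZ and differed by -2.39 (SE 0.16, adjusted p = 2.26e-10). The sulfate transporter Slc26a2 fell by 2.19, Papss1, which makes the sulfate donor, by 1.75, and Ugdh, which makes UDP-glucuronate, by 1.40. Chst1, a keratan sulfotransferase, went the other way, with levels of 6.71, 7.18 and 8.06 in the Ezh1/2 HZ and 4.30, 4.98 and 5.41 in the Ezh1/2 PZ. Its rise of 2.39 (SE 0.26, adjusted p = 3.37e-07) stood against 0.79 in wild-type mice (unadjusted p = 0.000263, adjusted p = 0.22).

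The small leucine-rich proteoglycans, which coat collagen fibrils, had 5 members of 12 that fell and 1 that rose (Podn, by 0.33), against 7 that fell and none that rose in wild-type mice. Their median was -0.25 in Ezh1/2 mice and -1.56 in wild-type mice. Taken gene by gene, the genotypes differed far less, with a median difference between the zone differences of 0.27. None of the 12 passed the adjusted p for that difference. Prelp, Fmod and Epyc are also in the matrix list. Omd and Lum fell by 2.48 and 1.86, close to the wild-type values of -2.33 and -1.65. Ogn, osteoglycin, had levels of 5.08, 6.18 and 8.77 in the Ezh1/2 HZ and 5.78, 6.56 and 6.67 in the Ezh1/2 PZ, a difference of 0.14 (SE 0.49, adjusted p = 0.86), against -1.69 in wild-type mice (unadjusted p = 0.0151, adjusted p = 0.737). The high HZ values of Ogn were 7.96 and 8.77 on arrays 4 and 6. Those 2 arrays also had the highest summed level of perichondrial markers, and the part of that tissue in the median of these proteoglycans was not tested.

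Transcription factors of the chondrocyte lineage split, with 6 of 24 higher (25%) and 11 lower (45.8%). Runx1, which acts with its relatives Runx2 and Runx3 in skeletal cells, had levels of 6.61, 7.2 and 7.60 in the Ezh1/2 HZ and 4.04, 4.23 and 4.45 in the Ezh1/2 PZ. Its rise of 2.86 (SE 0.19, adjusted p = 1.84e-10) compared with 1.64 in wild-type mice, a difference of 1.23 (SE 0.27, unadjusted p = 0.000149, adjusted p = 0.18). Mef2d, a partner of the hypertrophic programme, rose by 1.44 against 2.03 in wild-type mice (unadjusted p = 0.00293, adjusted p = 0.465). Nkx3-2, which holds chondrocytes back from hypertrophy, fell by 1.49, and its wild-type difference was -1.43.

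Of 12 genes of the Hedgehog and parathyroid hormone-related protein loop, 2 rose (16.7%) and 5 fell (41.7%). The ligand Ihh rose, and the receptor and target Ptch1 fell, with levels of 7.33, 7.51 and 8.28 in the Ezh1/2 HZ and 9.59, 9.75 and 9.88 in the Ezh1/2 PZ and a difference of -2.14 (SE 0.14, adjusted p = 1.84e-10) that stood beside -2.18 in wild-type mice. Hhip, a decoy receptor for Hedgehog ligands, fell by 0.79 (adjusted p = 0.0069) with some overlap, against -0.08 in wild-type mice (unadjusted p = 0.026, adjusted p = 0.817).

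Of 20 genes of the insulin-like growth factor (IGF) pathway, counting ligands, receptors, binding proteins and their regulators, 7 rose and 7 fell (35% each) in Ezh1/2 mice and 6 rose and 6 fell in wild-type mice, with medians of 0.39 and -0.06. The 2 largest of these rises in Ezh1/2 mice were those of the binding proteins Igfbp3 and Igfbp5. Igfbp3, an IGF carrier that limits the ligand, had levels of 6.75, 7.21 and 7.68 in the Ezh1/2 HZ and 4.02, 4.38 and 4.52 in the Ezh1/2 PZ, and of 5.25, 6.13 and 6.72 in the wild-type HZ and 4.12, 4.46 and 5.71 in the wild-type PZ. Its difference was 2.88 (SE 0.26, adjusted p = 1.59e-08) in Ezh1/2 mice and 1.41 in wild-type mice (unadjusted p = 0.000501, adjusted p = 0.276). Igfbp5, another carrier, had levels of 5.69, 6.67 and 8.30 in the Ezh1/2 HZ and 3.98, 4.15 and 4.52 in the Ezh1/2 PZ, and of 4.39, 4.64 and 5.88 in the wild-type HZ and 3.90, 4.22 and 5.77 in the wild-type PZ. The Igfbp5 difference was 2.54 (SE 0.36, adjusted p = 9.67e-06) in Ezh1/2 mice, with no overlap, and 0.41 in wild-type mice, where it was not called (unadjusted p = 0.000349, adjusted p = 0.253). The highest Ezh1/2 HZ value of Igfbp5 was on array 6. In the wild-type PZ the value of 5.77 was on array 1, against 3.90 to 4.60 on the other PZ arrays, which narrows the wild-type difference. Wild-type HZ array 2, at 5.88, widens it.

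The other 5 rises were smaller. The growth hormone receptor Ghr rose by 1.21 (wild type 1.37), the adaptor Irs2 by 0.90 (wild type 1.5) and the carrier-cleaving protease Pappa by 0.53 (wild type 0.45), and the carriers Igfbp2 and Igfbp4 were called higher too. The ligand Igf2 fell by 1.16 (wild type -1.14), and the receptor Igf1r by 1.15 (wild type -0.76). The receptor's adaptor Irs1 fell by 2.03 (wild type -2.04) and the clearance receptor Igf2r by 1.36 (wild type -2.13), all with an adjusted p of 7.09e-05 or less in Ezh1/2 mice. Igf1, the other ligand, had levels of 4.82, 5.51 and 6.71 in the Ezh1/2 HZ and 4.66, 4.72 and 5.25 in the Ezh1/2 PZ and a difference of 0.79 (SE 0.31, adjusted p = 0.0573). Pappa2, a protease that frees IGF from its carriers, was one of the few genes whose zone difference passed the test between genotypes and is described with them below.

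Of 35 genes of the BMP and TGF-β pathways, 10 rose (28.6%) and 11 fell (31.4%), where 17% and 16.7% of all genes did. Besides Bmp6, the ligand Bmp8a rose by 2.18 (SE 0.14, adjusted p = 1.15e-10) and Tgfb1 by 1.61 (SE 0.16, adjusted p = 9.62e-08), both close to wild type (1.94 and 1.56). Of 32 Wnt genes, 10 rose (31.2%) and 13 fell (40.6%). Tcf7l2, a nuclear effector of Wnt signalling, rose by 2.23 (SE 0.16, adjusted p = 4.34e-10) (wild type 2.89), whereas the Wnt enhancer Rspo3, the receptor Ror2 and the secreted inhibitor Sfrp5 fell by 2.58, 1.40 and 2.08. Wnt5a, a ligand that orients columnar cells, fell by 0.85 and the inhibitor Apcdd1 by 0.80, against -0.23 and 0.02 in wild-type mice, where neither was called (adjusted p = 0.317 for both differences).

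The FGF receptors changed places between the zones. Of 21 FGF genes, 10 rose and 4 fell. Fgfr1, the receptor of hypertrophic cells, had levels of 8.67, 8.84 and 9.34 in the Ezh1/2 HZ and 5.28, 5.90 and 6.32 in the Ezh1/2 PZ and differed by 3.08 (SE 0.18, adjusted p = 3.69e-11), while Fgfr2, Fgfrl1 and Fgfr3, which restrains proliferating chondrocytes, fell by 1.91, 1.05 and 1.2. The wild-type differences of these 4 receptors were 3.02, -1.86, -1.19 and -0.52. Spry2, a feedback inhibitor, rose by 1.5 (SE 0.22, adjusted p = 1.66e-05). Fgf7, a ligand of mesenchymal cells, rose by 1.18 (SE 0.19, adjusted p = 3.89e-05) in Ezh1/2 mice, against 0.32 in wild-type mice (unadjusted p = 0.0035, adjusted p = 0.49).

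Proteases and their inhibitors were higher more often than lower, with 14 of 27 up and 3 down (10 and 5 in wild-type mice). Beside Mmp13 and Mmp9, the aggrecanase Adamts4 rose by 0.62 (SE 0.11, adjusted p = 0.000121) and the inhibitor Timp3 by 1.34 (SE 0.20, adjusted p = 1.92e-05). Timp2, another inhibitor, had a difference of 0.19 (SE 0.23, adjusted p = 0.569) in Ezh1/2 mice and -0.79 in wild-type mice (unadjusted p = 0.00669, adjusted p = 0.607). Of 23 collagens outside cartilage matrix, 6 rose (26.1%) and 3 fell (13%), shares that lie around those of all genes. The basement membrane chains Col4a1 and Col4a2, which vessels also make, rose by 1.60 and 0.84, and Col16a1 and Col15a1 fell by 1.29 and 1.45.

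Hypoxia and glycolysis genes were mostly lower in the HZ, with 19 of 27 down and 4 up in Ezh1/2 mice (18 and 3 in wild-type mice). Car9, a carbonic anhydrase induced by low oxygen, fell by 1.66 and P4ha2, a collagen prolyl hydroxylase, by 1.54. The exceptions included Epas1, which encodes HIF-2α, with levels of 7.34, 8.21 and 8.68 in the Ezh1/2 HZ and 4.27, 4.38 and 4.51 in the Ezh1/2 PZ and a difference of 3.69 (SE 0.26, adjusted p = 5.63e-10), and Vegfa, the vessel growth factor of hypertrophic cells, which rose by 1.92 (SE 0.22, adjusted p = 5.57e-07). Genes of the secretory pathway and the unfolded protein response fell too, 16 of 26 against 2 that rose (12 and 2 in wild-type mice). The transport regulator Creb3l2 and the coat proteins Sec24d and Sec31a fell by 1.85, 1.24 and 0.94, while the stress factor Atf3 rose by 1.85 (wild type 2.79, unadjusted p = 0.000804, adjusted p = 0.306 for the difference).

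Of 29 Polycomb genes, 10 fell (34.5%) and 1 rose (3.45%) in Ezh1/2 mice and 9 fell and 3 rose in wild-type mice. Rbbp7, a histone-binding subunit, fell by 0.97 and Pcgf2, a subunit of Polycomb repressive complex 1, by 0.90. Bmi1, another subunit of that complex, had levels of 4.25, 4.74 and 4.82 in the Ezh1/2 HZ and 4.75, 5.25 and 5.73 in the Ezh1/2 PZ. It fell by 0.63 (adjusted p = 0.0018) with some overlap. In wild-type mice it was higher in the HZ by 0.30, which was not called (adjusted p = 0.116). The zone differences differed by -0.93 (SE 0.20, unadjusted p = 0.000139, adjusted p = 0.173).

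Genes that Polycomb is known to hold silent were called in both directions, at low levels. The mean Hox level on an array was 4.38 to 4.54 in the Ezh1/2 HZ and 4.48 to 4.59 in the Ezh1/2 PZ. For the early developmental factors below it was 4.55 to 4.69 and 4.54 to 4.65. The median of all probe sets was 4.36 to 4.45 on the Ezh1/2 HZ arrays. The values do not say whether these genes lie above background. Of 36 Hox genes, 9 rose (25%) and 10 fell (27.8%) in Ezh1/2 mice, where 17% and 16.7% of all genes did, and 10 rose and 7 fell in wild-type mice. Hoxc8, Hoxa6 and Hoxa2 fell by 1.14, 0.75 and 0.84, with wild-type values of -1.31, -0.64 and -0.42. Hoxd8 fell by 0.84 against -0.12 in wild-type mice (unadjusted p = 0.00215, adjusted p = 0.438). Of 40 transcription factors of early development, 8 rose and 8 fell (20% each, near the shares of all genes), against 11 that rose and 2 that fell in wild-type mice. Foxc2, a forkhead factor, rose by 0.75 (wild type 0.67) and Tbx15, a T-box factor of limb cartilage, fell by 0.65 (wild type -0.96). Gata6, a zinc-finger factor, rose by 1.02 (SE 0.10, adjusted p = 9.77e-08) against 0.47 in wild-type mice (unadjusted p = 0.000956, adjusted p = 0.317).

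Markers of vessels, osteoclasts and myeloid cells were higher in the HZ. Of 16 endothelial markers, 15 rose in the Ezh1/2 HZ and none fell. Their mean log2 level on an array ran from 5.04 to 6.12 in the Ezh1/2 HZ and 3.92 to 4.18 in the Ezh1/2 PZ, and Emcn, endomucin, had levels of 6.66, 7.04 and 8.34 in the Ezh1/2 HZ and 3.68, 4.01 and 4.53 in the Ezh1/2 PZ. Of 14 osteoclast markers all 14 rose (10 in wild-type mice), with array means of 5.98 to 6.84 in the Ezh1/2 HZ and 4.37 to 5.33 in the Ezh1/2 PZ. In wild-type mice the mean was 5.73 on PZ array 1, against 4.19 to 5.14 on the other PZ arrays. The lowest wild-type HZ mean, 5.5, was on HZ array 1. Both arrays narrow the wild-type difference, and their part in the comparison of the genotypes was not tested. Itgb3, the integrin of the sealing zone, rose by 2.90 (SE 0.23, adjusted p = 2.79e-09) against 1.56 in wild-type mice (unadjusted p = 0.00042, adjusted p = 0.276), and the proton pump subunits Atp6v0d2 and Tcirg1 rose by 2.64 and 1.12. For Itgb3 too, wild-type PZ array 1 was the highest PZ array (5.12) and HZ array 1 the lowest HZ array (4.70). Of 16 myeloid markers 9 rose and none fell, with array means of 5.32 to 6.24 in the Ezh1/2 HZ and 4.43 to 5.34 in the Ezh1/2 PZ. Tyrobp, an adaptor of myeloid receptors, rose by 2.85 and Csf1r, the receptor of macrophage colony-stimulating factor, by 1.74. For the endothelial and osteoclast lists every HZ array lay above every PZ array.

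Markers of bone, fat, muscle and fibrous tissue were called in part. Of 11 osteoblast markers 3 rose (27.3%) and 1 fell (9.09%), with array means of 6.13 to 7.49 in the Ezh1/2 HZ and 5.39 to 6.25 in the Ezh1/2 PZ. Dmp1, an osteocyte protein, rose by 2.51 (SE 0.62, adjusted p = 0.00365). Col1a1, the main bone collagen, had levels of 8.71, 9.25 and 11.21 in the Ezh1/2 HZ and 6.63, 7.47 and 9.06 in the Ezh1/2 PZ and a difference of 1.75 (SE 0.63, adjusted p = 0.0384) with overlap, which was not called without HZ arrays 4 and 6 (1.22, adjusted p = 0.182). Of 9 adipocyte markers 4 rose (44.4%, and 1 in wild-type mice), with array means of 4.90 to 5.67 in the Ezh1/2 HZ and 4.34 to 4.78 in the Ezh1/2 PZ. Among them Fabp4, a fatty acid carrier of fat and endothelium, rose by 2.82 (SE 0.77, adjusted p = 0.00737), with high HZ values on arrays 4 (9.77) and 6 (9.74), and was not called without them (adjusted p = 0.0633).

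Of 18 perichondrial markers 5 rose (27.8%) and 2 fell (11.1%) (2 and 2 without HZ arrays 4 and 6), with array means of 5.30 to 7.52 in the Ezh1/2 HZ and 5.27 to 5.75 in the Ezh1/2 PZ, and the 2 highest HZ arrays were 6 (7.52) and 4 (6.68). Of 25 muscle markers 4 rose (16%, no more than the 17% of all genes, and 1 without HZ arrays 4 and 6). Their array means, 4.36 to 8.16 in the Ezh1/2 HZ and 4.17 to 6.30 in the Ezh1/2 PZ, were high on HZ arrays 3, 4 and 6 and on PZ arrays 4 to 6. Of 12 resting zone markers 4 rose (33.3%) and 3 fell (25%), and of 5 erythroid markers 1 rose (20%), with array means of 4.49 to 5.60 in the Ezh1/2 HZ and 3.92 to 5.27 in the Ezh1/2 PZ. The part of vessels, osteoclasts, marrow and fibrous tissue in the HZ differences given above was not tested.

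**Figure D3:**
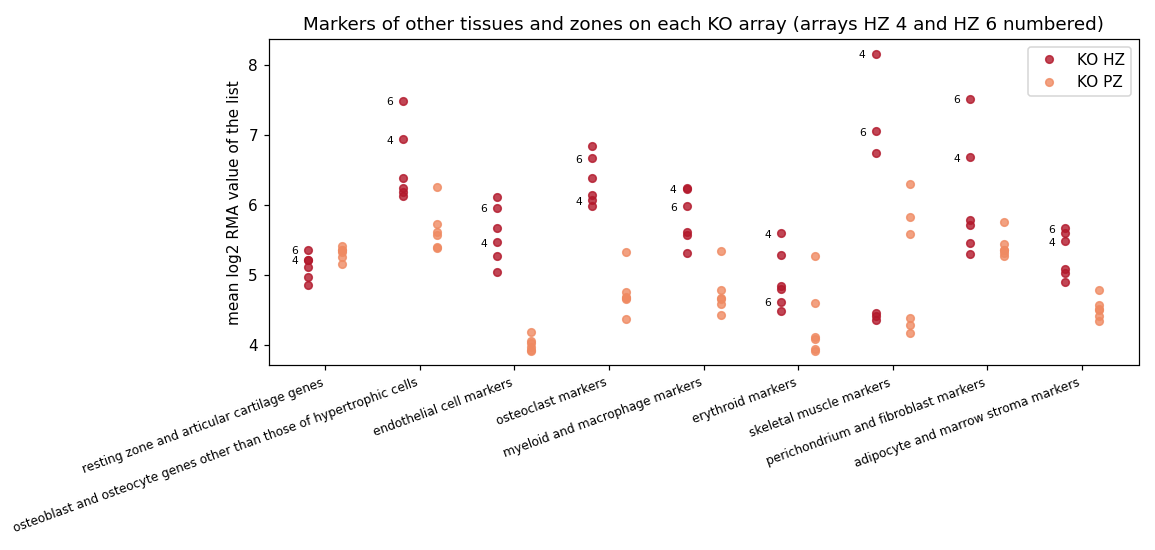
Mean log2 value of the markers of each other tissue or zone (vertical axis) on each array of Ezh1/2 mice (KO), a column pair for each list with HZ left of PZ and a point for each array. Endothelial, osteoclast and adipocyte means are higher on every HZ array than on any PZ array, while perichondrial means are high on HZ arrays 4 and 6 and muscle means are spread widely in both zones.

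Most zone differences of the wild-type growth plate were also present in Ezh1/2 mice. Of 7469 genes called in Ezh1/2 mice (33.7% of genes) and 8275 called in wild-type mice (37.3%), 5554 were called the same way in both, 2555 higher and 2999 lower in the HZ. They made up 74.4% of the Ezh1/2 calls and 67.1% of the wild-type calls. The median ratio of the Ezh1/2 difference to the wild-type difference was 0.982 over these genes, 1.024 for genes higher in the HZ and 0.95 for genes lower, and 2919 were smaller and 2634 larger in Ezh1/2 mice. Over all 22180 genes the differences of the 2 genotypes, which share no array, correlated with r = 0.904 (Spearman 0.834), a description across genes that are not independent of each other.

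The large changes were kept almost without exception. Of 257 differences over 2 units in Ezh1/2 mice, 251 were called the same way in wild-type mice, with a median ratio of wild type to Ezh1/2 of 0.943, and for 10 the wild-type difference was under 50%. Of 268 wild-type differences over 2 log2 units, 266 were called the same way in Ezh1/2 mice, with a median ratio of 0.905, and for 3 the Ezh1/2 difference was under 50% of the wild-type one. These were the gelatinase gene Mmp2 (-1.14 in Ezh1/2 and -2.30 in wild-type mice, unadjusted p = 0.0684, adjusted p = 0.895 for the difference), Mterf1b (-0.72, not called, and -2.11, unadjusted p = 0.0231, adjusted p = 0.798) and 8430431K14Rik (0.93 and 2.53, unadjusted p = 0.00105, adjusted p = 0.328). Since each list was chosen for its size in one genotype, that genotype is favoured in its own list. The 10 genes with the smaller wild-type difference included the IGF carriers Igfbp3 and Igfbp5, the iron oxidase Cp, the sulfotransferase Chst1, the aminopeptidase Lvrn (2.32 against 1.07, unadjusted p = 6.53e-05, adjusted p = 0.117) and Rgs5, a regulator of G-protein signalling known from pericytes. Rgs5 had levels of 4.41, 6.94 and 7.93 in the Ezh1/2 HZ and 4.24, 4.47 and 4.96 in the Ezh1/2 PZ, a difference of 2.08 (SE 0.56, adjusted p = 0.00725), against -0.32 in wild-type mice (unadjusted p = 0.00611, adjusted p = 0.59). Rgs5 was low on HZ arrays 1 (4.41) and 5 (5.42), and it was not called without arrays 4 and 6 (adjusted p = 0.0548).

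A further 1909 genes were called in Ezh1/2 mice only, of which 1778 had the same sign in wild-type mice. A call in one genotype only is not a difference between them, and of the 1909 genes 3 passed limma's adjusted p for the difference between the zone differences (365 at an unadjusted p under 0.05). Of 2715 genes called in wild-type mice only, 2538 had the same sign in Ezh1/2 mice, and none passed limma's adjusted p for the difference (403 at an unadjusted p under 0.05).

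**Figure D4:**
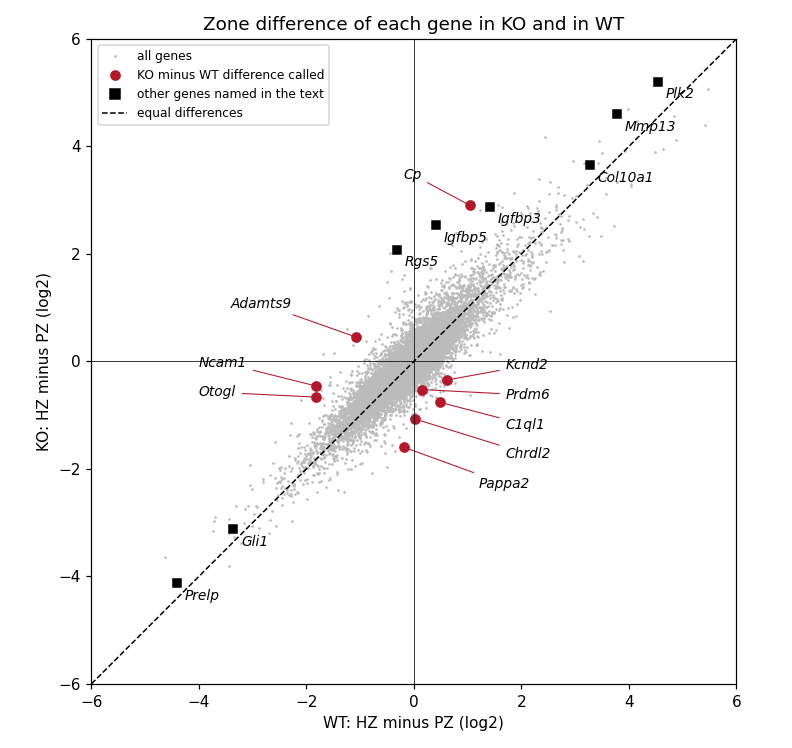
HZ minus PZ log2 difference in Ezh1/2 mice (vertical axis) against that in wild-type mice (horizontal axis), with a point for each of 22180 genes and a dashed line of equal differences. Most genes lie along the line, the 9 genes in red, whose zone differences differed past the adjusted p, lie off it on either side, and 8 other genes of the text are marked in black.

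The test of the difference itself called few features. The zone differences of Ezh1/2 and wild-type mice differed past the adjusted p for 12 of 41345 probe sets (0.029%), of which 5 were higher (0.0121%) and 7 lower (0.0169%) in Ezh1/2 mice as a signed value. Among genes 9 of 22180 passed (0.0406%), with 4 higher (0.018%) and 5 lower (0.0225%). Without adjustment, 2341 probe sets (5.66%) and 1358 genes (6.12%) had a p under 0.05. The 3 other probe sets had no gene symbol or several. With the array number fitted as a fixed block, no probe set passed the adjusted p for this difference (lowest adjusted p = 0.0582).

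Adamts9, a secreted protease that cleaves aggrecan and versican, changed direction. Its levels were 5.80, 6.16 and 6.56 in the Ezh1/2 HZ and 5.36, 5.77 and 6.06 in the Ezh1/2 PZ, and 4.80, 4.93 and 5.24 in the wild-type HZ and 5.74, 6.05 and 6.44 in the wild-type PZ. The HZ arrays were the higher ones in Ezh1/2 mice, with overlap, and the lower ones in wild-type mice, without overlap, where all 6 lay below the arrays of the other 3 groups. Its zone difference was 0.45 (SE 0.15, adjusted p = 0.0269) in Ezh1/2 mice and -1.07 (adjusted p = 8.6e-06) in wild-type mice, and these differed by 1.52 (SE 0.21, unadjusted p = 2.74e-07, adjusted p = 0.0044). The rise in Ezh1/2 mice on its own was not called in 6 of 36 alternatives (up to adjusted p = 0.0723, without HZ array 2).

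Cp, ceruloplasmin, a copper protein that oxidizes iron, rose in both genotypes but by more in Ezh1/2 mice. Its levels were 6.74, 7.07 and 7.58 in the Ezh1/2 HZ and 3.83, 4.28 and 4.55 in the Ezh1/2 PZ, and 5.17, 5.52 and 5.79 in the wild-type HZ and 3.94, 4.37 and 5.37 in the wild-type PZ. The differences were 2.91 (SE 0.20, adjusted p = 2.25e-10) in Ezh1/2 mice, 7.49-fold, and 1.04 (adjusted p = 0.000304) in wild-type mice, and differed by 1.87 (SE 0.28, unadjusted p = 7.74e-07, adjusted p = 0.00666). All 6 Ezh1/2 HZ arrays lay above the arrays of the other 3 groups.

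The start regions of these 2 genes, which head the list by size and differ in base composition, are shown with the dinucleotide CG in capitals, since Polycomb repressive complex 2 is known to be recruited to CG-rich promoters in mammals.
Adamts9, chr6:92943485-92943784, minus strand: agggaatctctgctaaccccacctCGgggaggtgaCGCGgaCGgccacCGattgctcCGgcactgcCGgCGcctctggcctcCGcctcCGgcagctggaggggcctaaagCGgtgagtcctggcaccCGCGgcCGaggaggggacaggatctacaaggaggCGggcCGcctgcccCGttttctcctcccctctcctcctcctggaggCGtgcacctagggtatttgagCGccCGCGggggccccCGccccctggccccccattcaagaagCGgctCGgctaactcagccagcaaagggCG
Cp, chr3:19956804-19957103, plus strand: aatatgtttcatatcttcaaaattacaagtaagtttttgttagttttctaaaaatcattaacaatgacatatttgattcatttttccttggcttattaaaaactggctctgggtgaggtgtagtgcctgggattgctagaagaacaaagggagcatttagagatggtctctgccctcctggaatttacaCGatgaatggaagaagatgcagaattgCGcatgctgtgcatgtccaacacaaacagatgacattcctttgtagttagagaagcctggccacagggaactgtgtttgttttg
The Adamts9 window held 25 CG dinucleotides and the Cp window shown 2, where the median over 32851 windows was 7 and 18.4% held 25 or more. A window at another Cp start, not shown, held 4. Of other genes named here, the windows held 1 CG in Chst1, 2 in Pappa2, 10 in Igfbp5, 26 in Kcnd2 and 37 in Igfbp3.

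Ncam1, a neural cell adhesion molecule of condensing mesenchyme, and Otogl, an otogelin-like matrix protein, fell less in Ezh1/2 mice. Ncam1 levels were 6.43, 6.74 and 7.21 in the Ezh1/2 HZ and 6.99, 7.31 and 7.48 in the Ezh1/2 PZ, and 4.91, 5.49 and 5.81 in the wild-type HZ and 7.09, 7.32 and 7.48 in the wild-type PZ, with differences of -0.46 (SE 0.14, adjusted p = 0.02) and -1.83 that differed by 1.37 (SE 0.21, unadjusted p = 8.06e-07, adjusted p = 0.00666). Otogl levels were 3.42, 3.57 and 3.84 in the Ezh1/2 HZ and 3.86, 4.26 and 4.51 in the Ezh1/2 PZ, and 3.49, 3.66 and 3.86 in the wild-type HZ and 4.95, 5.55 and 5.86 in the wild-type PZ, with differences of -0.66 (SE 0.14, adjusted p = 0.000833) and -1.82 that differed by 1.16 (SE 0.20, unadjusted p = 5.2e-06, adjusted p = 0.0239). The group that stood apart was the wild-type HZ for Ncam1, below all other arrays, and the wild-type PZ for Otogl, above all others. The Ezh1/2 zones overlapped for Ncam1 and were parted for Otogl.

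The other 5 genes had a more negative zone difference in Ezh1/2 mice. Pappa2, the IGF-carrier protease, had levels of 3.68, 3.86 and 4.99 in the Ezh1/2 HZ and 5.28, 5.64 and 5.87 in the Ezh1/2 PZ, and 3.47, 3.86 and 4.05 in the wild-type HZ and 3.75, 3.94 and 4.42 in the wild-type PZ. Its differences were -1.60 (SE 0.18, adjusted p = 5.48e-07) and -0.18 (adjusted p = 0.46), which differed by -1.42 (SE 0.26, unadjusted p = 1.43e-05, adjusted p = 0.0494). Array 4 had the highest HZ level, 4.99. The genotype call of Pappa2 was lost in 26 of 34 alternatives (adjusted p up to 0.153). Chrdl2, a chordin-like antagonist of BMPs, had levels of 4.0, 4.47 and 4.66 in the Ezh1/2 HZ and 5.20, 5.45 and 5.96 in the Ezh1/2 PZ, and 4.05, 4.24 and 4.61 in the wild-type HZ and 4.10, 4.28 and 4.37 in the wild-type PZ, with differences of -1.07 (SE 0.13, adjusted p = 1.04e-06) and 0.01 that differed by -1.08 (SE 0.18, unadjusted p = 4.46e-06, adjusted p = 0.023). Prdm6, a transcriptional repressor of the PR domain family, had differences of -0.52 (SE 0.08, adjusted p = 1.92e-05) and 0.15 that differed by -0.68 (SE 0.11, unadjusted p = 2.88e-06, adjusted p = 0.017). For these 3 genes the Ezh1/2 PZ arrays lay above the arrays of all other groups, and the zones overlapped in wild-type mice.

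C1ql1, a secreted protein of the complement C1q family, and Kcnd2, a potassium channel subunit, were turned round. C1ql1 levels were 3.42, 4.0 and 4.14 in the Ezh1/2 HZ and 4.08, 4.68 and 5.05 in the Ezh1/2 PZ, and 4.11, 4.34 and 4.91 in the wild-type HZ and 3.64, 3.94 and 4.08 in the wild-type PZ, with differences of -0.76 (SE 0.16, adjusted p = 0.000748) and 0.49 that differed by -1.26 (SE 0.22, unadjusted p = 1e-05, adjusted p = 0.0414). Kcnd2 levels were 4.31, 4.63 and 4.90 in the Ezh1/2 HZ and 4.76, 5.01 and 5.17 in the Ezh1/2 PZ, and 4.33, 4.77 and 4.99 in the wild-type HZ and 3.87, 4.16 and 4.25 in the wild-type PZ, with differences of -0.35 (SE 0.12, adjusted p = 0.0372) and 0.62 that differed by -0.97 (SE 0.17, unadjusted p = 1.23e-05, adjusted p = 0.0463). The zones of Ezh1/2 mice overlapped for both genes and those of wild-type mice did not. The genotype calls were lost in 22 of 34 alternatives for C1ql1 and in 24 for Kcnd2.

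**Figure D5:**
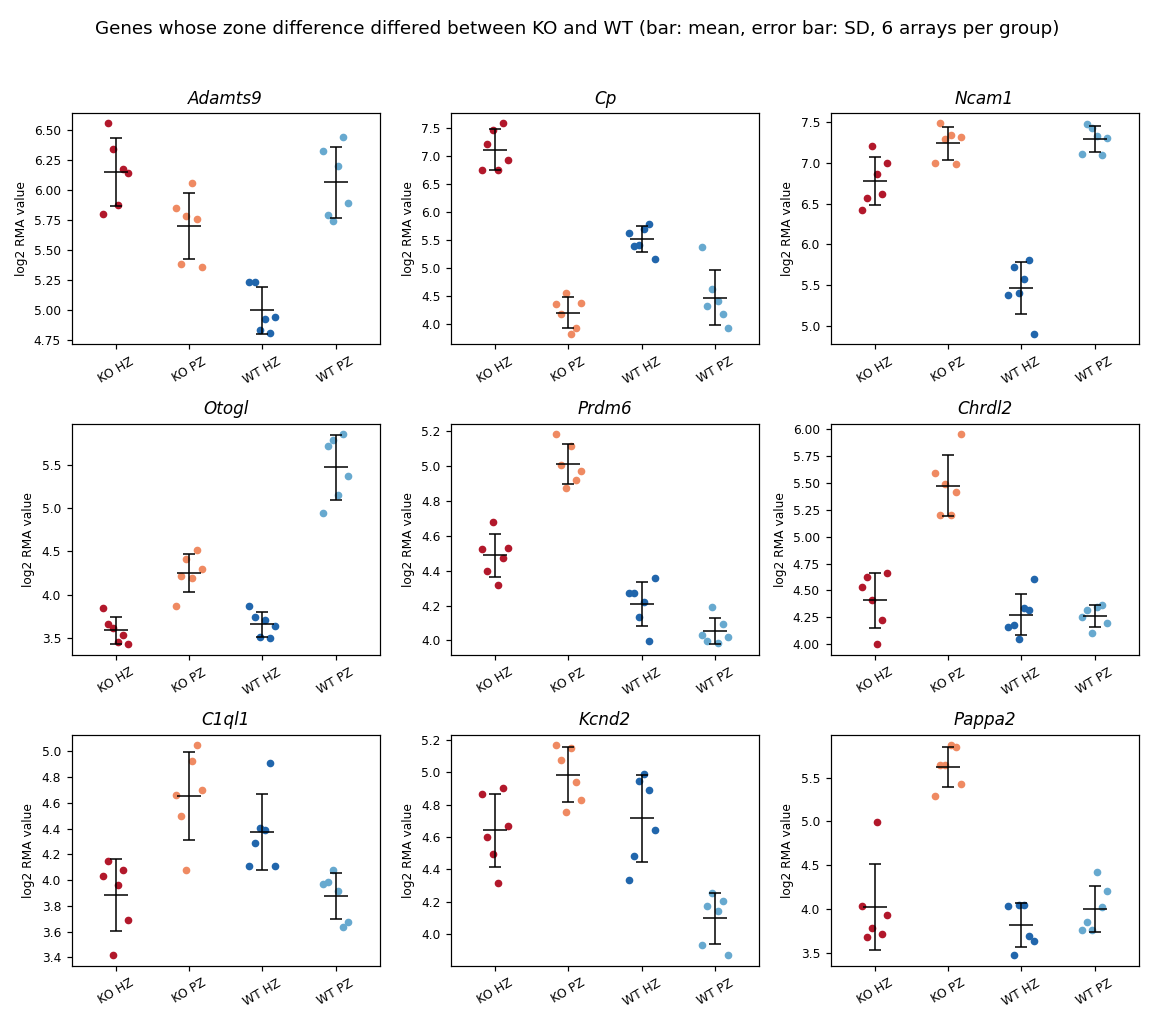
Log2 expression value (vertical axis) on each array of the 9 genes whose HZ minus PZ difference differed between the genotypes, a panel for each gene, with a bar at the mean and an error bar of 1 SD (6 arrays in each group of Ezh1/2, KO, and wild-type, WT, mice). One group stands apart in most panels, such as the KO PZ for Prdm6, Chrdl2 and Pappa2 and the WT HZ for Adamts9 and Ncam1.

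Opposite calls in the 2 genotypes were made for 6 genes, Adamts9, C1ql1, Kcnd2, Mcc, Igf2bp3 and Npas2. Mcc, a gene mutated in colorectal cancers, had differences of -0.49 in Ezh1/2 and 0.39 in wild-type mice (unadjusted p = 3.93e-05, adjusted p = 0.0951). Igf2bp3, a fetal RNA-binding protein that binds Igf2 messenger RNA, had -0.43 and 0.40 (unadjusted p = 0.000768, adjusted p = 0.305), and Npas2, a clock transcription factor, 0.45 and -0.50 (unadjusted p = 0.000551, adjusted p = 0.279). These 3 did not pass the test between genotypes, and the Ezh1/2 calls of Igf2bp3 and Npas2 were lost in 10 of 36 and 22 of 35 alternatives. Just short of the adjusted p stood Smpd2, a neutral sphingomyelinase, with 0.63 and -0.32 (unadjusted p = 2.22e-05, adjusted p = 0.0655), Cbln2, a synaptic organizer, with 0.11 and 1.02 (unadjusted p = 3.94e-05, adjusted p = 0.0951), Odf3l1 with 1.14 and 1.98, and the choline transporter Slc44a2 with -0.88 and 0.11 (adjusted p = 0.0951 for each of the last 2).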

How the data were processed

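The authors deposited log2 expression values of 24 Affymetrix mouse whole-transcript arrays, background-corrected, quantile-normalized and summarised together by robust multi-array averaging (RMA) in Partek Genomics Suite. The values cover 41345 probe sets, none missing. They do not say whether a probe set is above background, and scanner files were not used here. Groups were taken from the sample titles, 6 arrays in each of 4.

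Probe sets were named by the platform annotation, in which 23521 have 1 symbol, 1820 several and 16004 none, and the probe set with the highest mean represented each of 22180 genes. Of those with 1 symbol, 23328 matched a RefSeq gene. A model with 1 mean per group was fitted to all 24 arrays in limma (version 3.58.1, R 4.3.3) with moderated variances. The contrasts were HZ minus PZ in Ezh1/2 mice, the same in wild-type mice, and the difference of both, two-sided, with Benjamini-Hochberg adjustment over all probe sets and calls at an adjusted p under 0.05. The p-values measure the spread between arrays. Marker genes were also tested by an exact two-sided permutation test of 6 against 6 arrays. The fit was tested on simulated data with 200 changed probe sets.

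Of the 30 gene lists, 21 are pathways and 9 other tissues, and some share members. List members, the compared groups and the named genes were chosen with earlier results of these data known, so list counts are descriptions. The naming rule took the zone markers, the 15 largest differences each way without overlap, the lowest p-values for the difference between genotypes, up to 4 members of each list by p in Ezh1/2 mice and up to 2 by p between genotypes, the 10 largest wild-type differences each way and genes that the study names, and the text uses a part of these. Rgs5, Npas2 and the other members of short counts were added after their values were seen. The alternatives were a replicate block, an unmoderated analysis of variance, array quality weights, a mean-variance trend and rescaled or centred arrays. A floor on the mean, 1 probe set per symbol, the study's thresholds and left-out arrays were also tried. For the zone differences, the 12 arrays of each genotype were also fitted alone. Start regions came from RefSeq (GRCm38.p6).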

Additional observations from a re-analysis of the deposited data

Results flagged for a closer look

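Among 352 combinations of a named gene and a group of 6 arrays, 22 had 1 array farther from the rest than Dixon's 95% limit allows, where chance gives about 1 in 20. Ezh1/2 HZ array 4 accounted for 7 of them. It was low for Mmp13 (10.06) and high for Ucma (9.70), Unc5c (7.16), Zfp648 (6.19), Efcab1 (5.20), Pappa2 (4.99) and Nkx3-2 (4.43), all of which apart from Mmp13 were higher in the PZ. On the other Ezh1/2 HZ arrays, array 2 was low for Slc44a2 (7.37), array 3 high for Ptch1 (8.28), array 5 high for Bmp6 (9.42) and array 6 high for Prg4 (7.95). On the Ezh1/2 PZ arrays, array 1 was low for Ogn (5.78) and high for Hoxc8 (6.35) and Wnk4 (6.47), array 4 was low for Ezh2 (5.85) and high for Gata6 (3.85), and array 5 was low for Runx3 (7.01). PZ array 6 was high for Pola1 (6.39), Igf1 (5.25), Rgs5 (4.96) and Kctd12 (5.04). In the wild-type HZ, array 5 was high for C1ql1 (4.91).

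The HZ minus PZ difference of Ezh1/2 mice less that of wild-type mice passed the test of the difference itself for 9 genes, at 1.87 for Cp, 1.52 for Adamts9, 1.37 for Ncam1, 1.16 for Otogl, -0.68 for Prdm6, -0.97 for Kcnd2, -1.08 for Chrdl2, -1.26 for C1ql1 and -1.42 for Pappa2.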

How the results depend on the processing

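Among 167 named genes no called zone difference of Ezh1/2 mice changed sign under any alternative run, nor did any of the 9 differences between genotypes. Of 156 named genes called between the zones of Ezh1/2 mice, 146 were called in each alternative that tested them. The floor on the mean tested 137 of the 167. The cause of the changes below was not tested. Replicate numbers were not taken as a pairing, since the labels do not say that a number names a mouse. Deviations of same-numbered arrays correlated at 0.07 to 0.19 in Ezh1/2 and -0.13 to 0.28 in wild-type mice. In Ezh1/2 mice 5 of 6 HZ arrays correlated best with their own number, which goes with a pairing, and in wild-type mice 2 of 6 did. These values do not settle whether same-numbered arrays share a mouse. With the number as a fixed replicate block no zone difference differed between the genotypes in either direction (0 higher, 0 lower), though 2732 had an unadjusted p under 0.05 and the lowest adjusted p was 0.0582. As a random block (correlation 0.097) 12 were lower, and 10 genes had opposite calls.

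Between the genotypes, 4 were lower with unmoderated variances, with rescaled and with centred arrays, and 10 were higher without Ezh1/2 HZ arrays 4 and 6. Centring gave 4690 wild-type calls higher. A mean over 5 left 1914 Ezh1/2 and 2041 wild-type calls higher, 1 lower between genotypes, 3399 genes called the same way, 956 in wild-type mice only, 3 in opposite directions, and 67 pathway and 26 other-tissue genes higher, fewer probe sets being tested. With 1 probe set per symbol 3855 Ezh1/2 calls were lower, and 4621 wild-type calls were higher and 4186 lower. At the study's thresholds there were 2587 calls higher and 3838 lower in Ezh1/2 mice, 2753 and 4011 in wild-type mice and 60 and 68 between them, with 3160 genes called the same way, 1330 in wild-type mice only and 0 in opposite directions. Without the 3 narrow-range HZ arrays 4683 wild-type calls were higher and 1580 genes were called in wild-type mice only.

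Leaving out 1 array at a time gave 4860 to 6408 calls higher and 5755 to 6698 lower in Ezh1/2 mice, 5437 to 7900 and 5802 to 6736 in wild-type mice, and 4 to 9 (without wild-type HZ array 2) and 3 (without Ezh1/2 PZ array 1) to 14 (without Ezh1/2 HZ array 5) between them. Genes called the same way numbered 5023 to 5708, in wild-type mice only 1840 to 3437 and in opposite directions 2 (without Ezh1/2 PZ array 2) to 7. Of the 9 genes called between genotypes, Pappa2, Kcnd2 and C1ql1 were lost in 26, 24 and 22 of 34 alternatives, Otogl, Chrdl2 and Prdm6 in 9, 5 and 2, and Adamts9, Cp and Ncam1 under the fixed block alone. Only these last 3 were tested, and called, among probe sets with a mean over 5. The others fell below that floor, and the values do not say whether they lie above background.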
